A study of Mus musculus with 9 samples.

Results

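Circulating monocytes/macrophages of stroke and sham-operated mice are described here across all genes, from the 3 stroke blood and 3 sham blood libraries among the 9 RNA sequencing libraries of the study. All 6 came from male C57BL/6J mice aged 9 weeks by the labels, and each library was made from the cells of 1 mouse. In stroke mice the distal middle cerebral artery and the common carotid artery of the left side were occluded for good (dMCAO), and their blood was taken 5 days later. Sham mice were operated on without the occlusion, and the day on which their blood was taken was not given in the sources used here. The libraries were chosen by these labels of tissue and surgery and not by any measured value. The comparison asks how monocytes in the circulation of stroke mice differ from those of sham mice.

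Monocytes are made in the bone marrow, circulate in the blood and enter injured tissue, where they can become macrophages. In mice the classical monocytes carry much Ly6C on their surface and migrate towards chemokines such as CCL2, whereas the non-classical monocytes carry little Ly6C, depend on the transcription factor NR4A1 and patrol the vessel wall. Stroke is known to alter immune cells outside the brain through stress hormones, sympathetic nerves and signals released by the injured tissue.

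Total counts were between 18475118 and 21561271 per library, and a gene was taken as detected from 3 counts, which amounted to 0.139 to 0.162 CPM (the library scaled to a sum of 1000000). Values below are CPM per library or log2 fold changes of stroke blood over sham blood, and neither is divided by gene length, so levels are compared between libraries and not between genes. The sort kept CD11c-Ly6G-CD11b+CD45high cells. Lyz2, the lysozyme gene of monocytes and macrophages, held between 7.95% and 11.6% of all counts, all 12 monocyte lineage markers examined were detected well enough to be tested, and Ly6g, which encodes the neutrophil antigen used for exclusion, had between 0 and 14 counts per library. Itgax, which encodes CD11c, the other antigen used for exclusion, was detected in all 6 libraries, with between 199 and 403 counts. In bulk libraries such as these, fewer cells of a type and less RNA per cell cannot be told apart.

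Sham blood 1 stood apart from the other sham blood libraries. After the variance-stabilizing transformation of DESeq2, PC1 of the 500 most variable genes held 48.7% of the variance and placed sham blood 1 at -18.9, with sham blood 2 and 3 at 14.6 and 16.7 and the stroke blood libraries between -4.69 and -3.53. PC2 held 23.5% and separated the groups, with sham blood between 4.80 and 13.2 and stroke blood between -10.2 and -3.71. When all genes with a count were used, the groups overlapped on each of PC1, PC2 and PC3. On PC1, sham blood 1 was then at -0.876 and stroke blood 2 at -0.117, with sham blood 2 and 3 above and stroke blood 1 and 3 below them. Over all genes with a count, sham blood 1 was 57.8 and 62.6 units from the other sham libraries, which were 42.7 units apart, whereas distances were between 47.2 and 55.5 within stroke blood and between 50.6 and 64.9 across groups. Distances within and between groups overlapped. The median SD of log2 CPM within a group was 0.273 in sham blood and 0.300 in stroke blood, and 45.8% of the genes tested had the larger SD in sham blood.

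**Figure D1:**
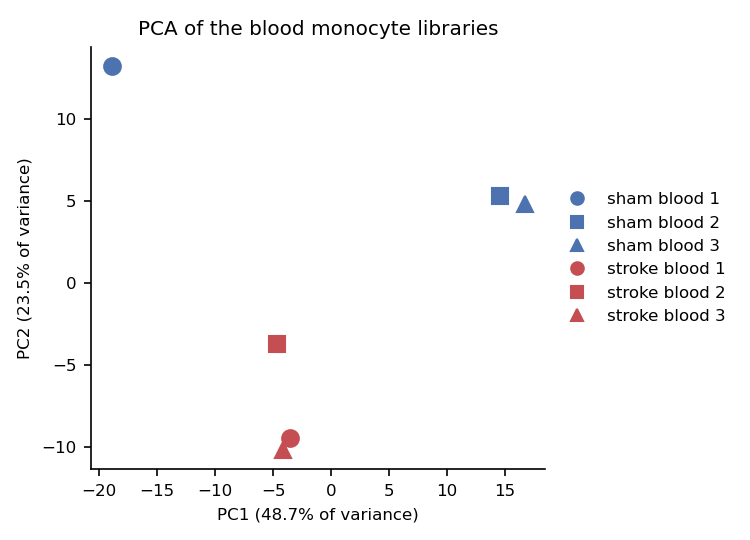
Principal components of the 6 blood libraries from the 500 most variable genes after the variance-stabilizing transformation, with PC1 on the x axis and PC2 on the y axis in units of that transformation, and each symbol a library. Sham blood 1 lies apart from sham blood 2 and 3 on PC1, and all 3 stroke blood libraries lie below the sham blood libraries on PC2.

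Genes of other blood cells differed between these libraries, and their part in the results below was not tested. The 13 genes of the erythroid list with counts in the files, of 14 listed, among them the globins and Alas2 of heme synthesis, summed to 1271, 35589.8 and 31440.2 CPM in sham blood and 15345, 14315 and 18916 CPM in stroke blood, so that sham blood 1 had far less of them than any other library. Platelet genes, with sums of 35.9, 755 and 1084 CPM in sham blood and 563, 680.1 and 531 CPM in stroke blood, were also lowest in sham blood 1. Neutrophil genes were high in sham blood 3, with sums of 2356, 2485 and 5190.5 CPM in sham blood and 1713, 2353 and 1939 CPM in stroke blood. The 10 genes with the largest SD within sham blood, among genes with a mean log2 CPM above 5, included Lrg1, Igha, Wfdc21, Itga2b, Saa3, Clu, Alas2 and Ppbp, of which Itga2b and Ppbp are platelet genes and Alas2 is expressed in red cell precursors. Within stroke blood they were Igha, Alox15, Retnlg, Gm13340, S100a9, Igkc, Wfdc21, Lrg1, Gm24270 and Gzmb. Alas2 was at 48.1, 1649.9 and 1497 CPM in sham blood and 556, 543 and 477 CPM in stroke blood. Its sham blood values enclosed those of stroke blood. For Lrg1, an acute-phase gene, the values were 1.07, 87.2 and 937 CPM in sham blood and 33.9, 7.84 and 49.7 CPM in stroke blood, and the highest and the lowest of the 6 were both sham.

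Of the 12664 genes that passed the filter on low counts, 1 was a differentially expressed gene (DEG), which was 0.0079% of the genes tested by edgeR's quasi-likelihood test with an adjusted p below 0.05 and a change of more than 1 on the log2 scale. This gene was Serpinb10, a member of the clade B serine protease inhibitors. Serpinb10 was at 45.1, 42.6 and 55.9 CPM in sham blood and 184, 154 and 164 CPM in stroke blood. The lowest stroke value was well above the highest sham value. The means were 47.9 ± 7.03 CPM (SD, n = 3) in sham blood and 167 ± 15.5 CPM (SD, n = 3) in stroke blood (log2 fold change 1.84, SE 0.17, edgeR adjusted p = 0.0231). Serpinb10 lies at chr1:107529003-107549271 (GRCm38), is annotated by GENCODE M21 as a polymorphic pseudogene, and has exons that overlap Serpinb2 on the same strand, so reads there cannot be assigned with certainty. Serpinb10 did not pass without sham blood 2 or without any one of the stroke blood libraries, with log2 fold changes between 1.75 and 1.96 over the 6 fits that each left out 1 library, and without sham blood 1 the count of DEGs was 16. Serpinb2 itself had between 6 and 62 counts per library, against 907 to 3816 for Serpinb10. At an unadjusted p below 0.05, edgeR found 825 genes higher in stroke blood (6.51% of those tested) and 756 lower (5.97%). With upper-quartile normalization these were 1068 and 497. These shares moved when 1 library was left out, and list counts from such fits are to be read against them. The share higher was 7.44%, 3.84% and 4.71% without sham blood 1, 2 or 3. It was 3.97%, 8.18% and 3.50% without stroke blood 1, 2 or 3. The share lower was 7.81%, 3.13% and 4.45% without sham blood 1, 2 or 3. It was 4.12%, 9.94% and 4.48% without stroke blood 1, 2 or 3. DESeq2, the tool of the study, called 187 genes at an adjusted p below 0.05, 102 of them higher (0.825%) and 85 lower (0.687%), and 127 of the 187 were also past the fold change threshold (1.03%). All 185 of these 187 that edgeR had tested were at an unadjusted edgeR p below 0.05. Apart from Serpinb10, no gene named below passed the edgeR threshold, and their values are given as differences that did not pass it. The gene lists were drawn up with earlier results of these data known, and some genes are in several lists. Shares of list members given below are therefore descriptions and not tests.

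The lower side of the comparison was led by Thbs1 and Fkbp5. Thbs1 encodes a secreted glycoprotein that binds CD36 and CD47, and was at 473, 326 and 220.4 CPM in sham blood and 51.4, 74.2 and 47.8 CPM in stroke blood. All stroke values lay below the lowest sham value. The difference was the next by p after Serpinb10 (log2 fold change -2.52, SE 0.30, edgeR adjusted p = 0.0806). Fkbp5, a co-chaperone of the glucocorticoid receptor that glucocorticoids induce, was at 15.2, 27.5 and 27.5 CPM in sham blood and 5.45, 5.66 and 5.99 CPM in stroke blood. Its stroke blood values were close to each other and lay below all sham blood values (log2 fold change -1.99, SE 0.27, edgeR adjusted p = 0.150). DESeq2 called both genes, with adjusted p values of 3.64e-15 and 2.69e-08. Exons of Thbs1 overlap Gm29233 on the opposite strand, and no source used here states whether counting used the strand.

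Among genes with a mean log2 CPM above 3 whose libraries did not overlap, the 15 with the smallest p on the higher side included Serpinb10, Srsf5, Rnase6, Skint3, Ear2, Rasa4, Gm28437, Aif1, Mef2c, mt-Tp, A130071D04Rik, mt-Nd1, mt-Rnr2 and Gm9843. Without overlap, 1042 genes (8.23% of those tested) were higher in stroke blood and 1329 (10.5%) were lower. Srsf5, a splicing factor, was at 73.4, 77.01 and 90.7 CPM in sham blood and 144, 163 and 163 CPM in stroke blood (log2 fold change 1.00, SE 0.16, edgeR adjusted p = 0.285). Rnase6 encodes an antimicrobial ribonuclease of myeloid cells and was at 168, 219.8 and 179.6 CPM in sham blood and 364, 339 and 342 CPM in stroke blood. Its log2 fold change of 0.92 was close to that of Ear2, another secreted ribonuclease, which was at 102, 122 and 132 CPM in sham blood and 233, 192 and 223 CPM in stroke blood (log2 fold change 0.91). Both ribonuclease genes were thus higher in every stroke blood library than in any sham blood library. Aif1, the gene of the macrophage protein IBA1, was at 57.7, 43.5 and 61.98 CPM in sham blood and 95.6, 110.2 and 130.1 CPM in stroke blood (log2 fold change 1.08, SE 0.20), and Mef2c, a MADS box transcription factor, had a log2 fold change of 0.93. Skint3, at 17.5, 15.5 and 8.23 CPM in sham blood and 39.8, 39.6 and 39.7 CPM in stroke blood, showed nearly equal stroke blood values. The Ras GTPase-activating protein gene Rasa4 (log2 fold change 1.05) overlaps Gm15701 and Mir7035 in its exons.

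On the lower side the 15 genes were Thbs1, Fkbp5, Fcmr, Spib, Uck2, H2-Ob, Ly6d, Tmem250-ps, Il1r2, Ighd, Ccr7, Gm28875, Ms4a1, Luc7l and Narf. Il1r2, the decoy receptor of interleukin-1 that glucocorticoids also induce, was at 18.2, 17.4 and 46.01 CPM in sham blood and 5.55, 6.54 and 8.58 CPM in stroke blood (log2 fold change -1.94, SE 0.40, edgeR adjusted p = 0.285). Sham blood 3, the library with the most neutrophil transcripts, was also the highest for Il1r2. Ccr7, the receptor that guides cells to lymph nodes, was at 11.9, 45.5 and 28.6 CPM in sham blood and 6.18, 8.72 and 5.397 CPM in stroke blood (log2 fold change -2.04). Uck2, a uridine-cytidine kinase whose exons overlap Gm2453, had a log2 fold change of -1.21, Luc7l of the splicing machinery had -0.92 and Narf had -0.85. Fcmr, Spib, H2-Ob, Ly6d, Ighd and Ms4a1 are known from B cells and are described with the B cell list below.

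**Figure D2:**
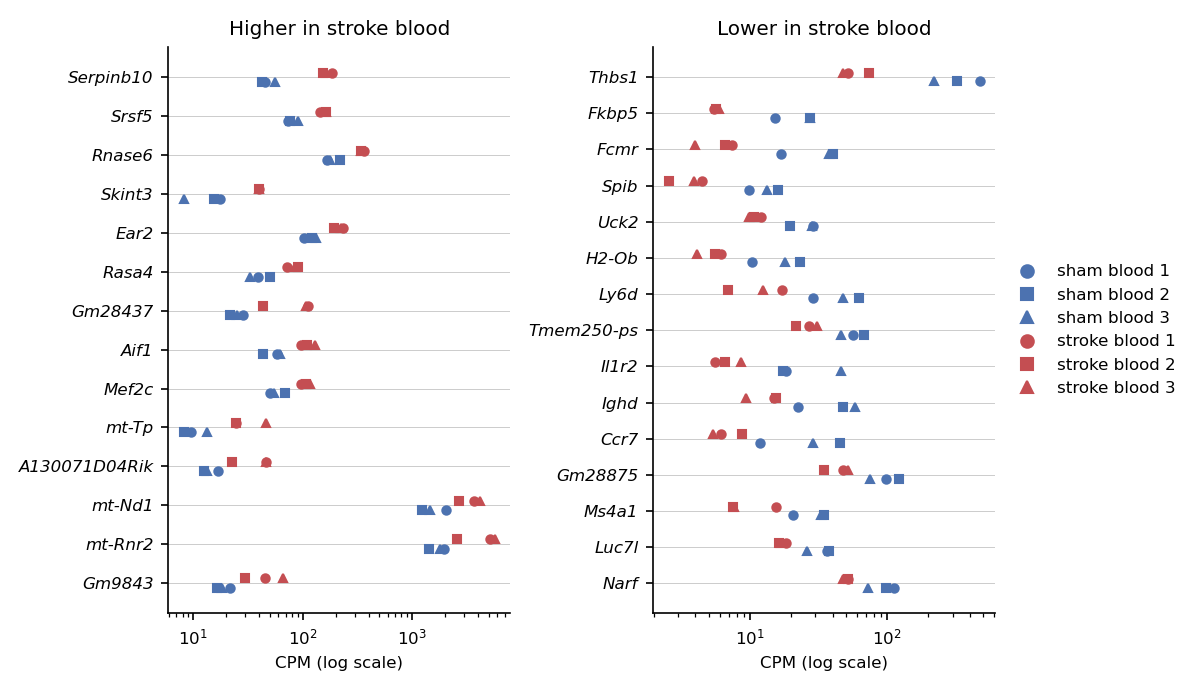
CPM on a log axis of the genes named from the 15 with the smallest p on the higher side (left) and on the lower side (right) of stroke blood over sham blood, with each symbol a library. In each row the sham blood and stroke blood symbols do not overlap, which is how the genes were chosen.

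Cytosolic ribosomal protein genes were higher in stroke blood nearly throughout. Of the 81 cytosolic ribosomal protein genes tested, 80 were higher in stroke blood and 1 was lower, where 46.7% of all genes tested were higher. At an unadjusted p below 0.05, 76 were higher (93.8%, against 6.51% of all genes tested) and 1 was lower, and their median log2 fold change was 0.73, against -0.03 over all genes tested. The list summed to 33361, 25610.3 and 28960.5 CPM in sham blood and 49118, 35839 and 51122 CPM in stroke blood. The lowest stroke blood library was above the highest sham blood library, though stroke blood 2 was nearer to sham blood than the other stroke libraries were. Rps14 of the small subunit was at 791, 675 and 759.8 CPM in sham blood and 1371, 1025 and 1394 CPM in stroke blood (log2 fold change 0.81, SE 0.18, edgeR adjusted p = 0.285), and Rpl17 of the large subunit was at 229, 172 and 195 CPM in sham blood and 392, 273 and 469 CPM in stroke blood (log2 fold change 0.97). Rps15a and Rps28 had log2 fold changes of 1.06 and 1.01. DESeq2 called 15 of the list at an adjusted p below 0.05. Without sham blood 2, 49 of the list were higher at an unadjusted p below 0.05, where 3.84% of all genes tested were. Ribosomal protein genes have many near-identical pseudogenes, so their counts are uncertain.

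Transcripts of the mitochondrial genome, which encode core subunits of the respiratory chain, were higher as well. All 12 that were tested were higher in stroke blood, 10 of them at an unadjusted p below 0.05 (83.3%, against 6.51% of all genes), with a median log2 fold change of 1.15. They summed to 9685, 6314 and 7432 CPM in sham blood and 17601, 11602 and 19157 CPM in stroke blood, and the mitochondrial genome as a whole held between 0.837% and 1.23% of counts in sham blood and between 1.52% and 2.64% in stroke blood. mt-Nd1 of complex I was at 2029.8, 1234 and 1444 CPM in sham blood and 3691, 2686 and 4155 CPM in stroke blood (log2 fold change 1.20, SE 0.25, edgeR adjusted p = 0.285), and mt-Nd6, mt-Nd2 and mt-Co1 had log2 fold changes of 1.48, 1.35 and 1.12. Of 76 nuclear genes of oxidative phosphorylation tested, 70 were higher, but 7 were higher (9.21%, against 6.51% of all genes) and 1 was lower at an unadjusted p below 0.05, and their median was 0.26. Without stroke blood 2, 29 were higher at that level, where 8.18% of all genes were. Without sham blood 2, stroke blood 1 or stroke blood 3, 1 was, where 3.84%, 3.97% and 3.50% of all genes were. Ndufa6, a complex I subunit, led them at 174, 136 and 162 CPM in sham blood and 271, 195 and 252 CPM in stroke blood (log2 fold change 0.64), followed by Ndufa11 at 0.56.

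Other abundant transcripts moved with these groups. CT010467.1, annotated as ribosomal RNA and named after its values were seen, has exons that overlap AY036118 and Gm42418 and was at 741, 1133 and 1749 CPM in sham blood and 4065, 2154 and 5195 CPM in stroke blood (log2 fold change 1.70). Lars2, the mitochondrial leucyl-tRNA synthetase, also named after its values were seen, was at 1891, 1633 and 2000.2 CPM in sham blood and 5906, 2472 and 6348 CPM in stroke blood. In both, stroke blood 1 and 3 were highest, as they were for ribosomal protein genes and mitochondrial transcripts. mt-Rnr2, the large ribosomal RNA of mitochondria, was at 1945, 1431 and 1796 CPM in sham blood and 5194, 2586 and 5691 CPM in stroke blood. Lars2 and mt-Rnr2 were both highest in stroke blood 3, then in stroke blood 1, then in stroke blood 2. Whether the reads counted for Lars2 came from its own mRNA was not tested. Gm28437 and Gm13340, nuclear copies of mitochondrial sequence, can share reads with mitochondrial genes and are uncertain. The part of ribosomal RNA content in these differences was not tested.

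Levels also moved with transcript length. The genes tested were divided by length into 5 groups of equal size. In the shortest, of 53 to 1606 bases, the median log2 fold change was 0.24, and in the others it was -0.02, -0.12, -0.15 and -0.06 in order of length. Stroke blood 1 and 3 were above the mean of the 6 libraries for the shortest genes, by 0.200 and 0.280 on the log2 scale, whereas stroke blood 2 was at -0.07 and sham blood was between -0.14 and -0.08. Median transcript lengths were 1109 bases for the ribosomal protein genes, 1094 for the nuclear oxidative phosphorylation genes and 870.5 for the mitochondrial transcripts. With an offset for transcript length and GC content, chosen after seeing the data, the median of the ribosomal protein genes was 0.52 with 58 higher at an unadjusted p below 0.05, that of the mitochondrial transcripts was 0.77, and that of the nuclear oxidative phosphorylation genes was 0.04. Serpinb10 did not pass the threshold with this offset, which left 0 genes called and 1389 at an unadjusted p below 0.05.

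**Figure D3:**
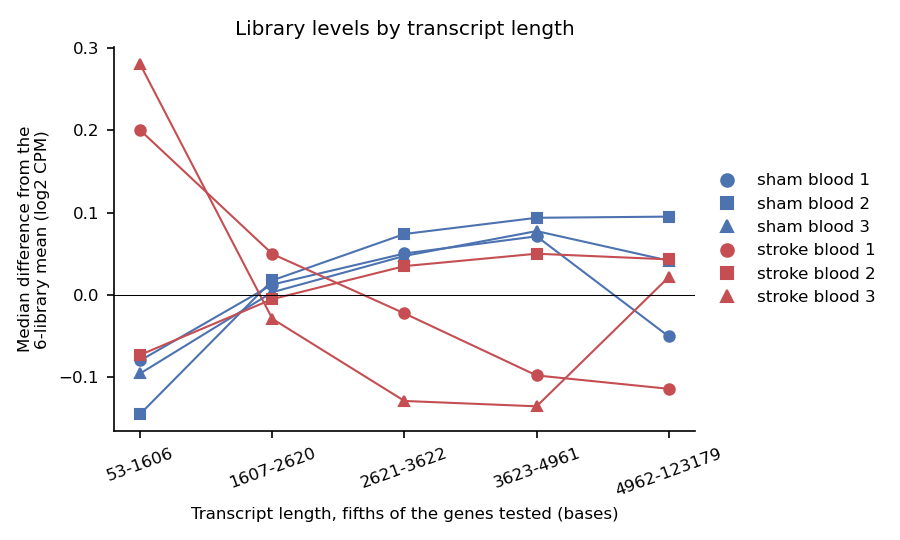
Median difference of each library from the mean of the 6 libraries in log2 CPM (y axis) in 5 groups of genes by transcript length in bases (x axis), with each line a library. For the shortest genes stroke blood 1 and 3 lie at 0.200 and 0.280, and the other 4 libraries lie below 0.

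Most heat shock chaperones were lower in stroke blood, though sham blood 3 was near the stroke level. These proteins fold other proteins, and many of their genes are switched on by the factor HSF1 through heat shock elements, which are inverted repeats of nGAAn units in promoters. Of 14 tested, 13 were lower in stroke blood, 7 at an unadjusted p below 0.05 (50%, against 5.97% of all genes), and the median log2 fold change was -0.58. The list summed to 7230, 4817 and 3868.5 CPM in sham blood and 3824, 3646 and 3040 CPM in stroke blood. The median over members of the log2 difference from the 6-library mean overlapped. It was 0.69, 0.31 and -0.28 in sham blood and -0.19, -0.24 and -0.43 in stroke blood. Hsph1, a nucleotide exchange factor for HSP70, was at 139, 63.2 and 33.8 CPM in sham blood and 24.6, 21.7 and 17 CPM in stroke blood (log2 fold change -1.87, SE 0.45, edgeR adjusted p = 0.285). All stroke values were below all sham values, and sham blood 1 was the highest. Dnaja1, an HSP40 co-chaperone, was at 522, 253 and 131 CPM in sham blood and 130.4, 131 and 86.3 CPM in stroke blood (log2 fold change -1.35), with overlap between the groups. The chaperones of the endoplasmic reticulum Hsp90b1 and Hspa5 had log2 fold changes of -0.54 and -0.69, and the mitochondrial chaperone Hspd1 had -0.70. Without sham blood 1, the median of the list was -0.38, and 4 of the genes were lower at an unadjusted p below 0.05, as were 4 without stroke blood 3. Of all genes tested in these fits, 7.81% and 4.48% were lower at that level.

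The windows of 250 bases before the annotated start were searched for the pair of units in either order, written GAANNTTC and TTCNNGAA, each its own reverse complement. Of all RefSeq windows 12.8% held such a pair, of the windows of genes tested 10.4%, and of the 16 windows of heat shock genes, some of which overlap, 50% (8). These 8 belong to 7 of the 11 heat shock genes with a window. The windows of the genes with a match among those described are shown in lower case from 5′ to 3′, from RefSeq on GRCm38.p6, with the matches in capitals. They lie at chr5:149636337-149636586 (minus strand) for Hsph1, chr4:40722218-40722467 (plus strand) for Dnaja1, chr1:55087933-55088182 (minus strand) for Hspd1 and chr17:34959239-34959488 (minus strand) for Hspa1b.
Hsph1: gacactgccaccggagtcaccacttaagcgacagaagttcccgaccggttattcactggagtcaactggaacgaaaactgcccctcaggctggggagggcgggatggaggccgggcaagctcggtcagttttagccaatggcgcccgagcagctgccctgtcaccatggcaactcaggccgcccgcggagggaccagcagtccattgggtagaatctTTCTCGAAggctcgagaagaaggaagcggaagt
Dnaja1: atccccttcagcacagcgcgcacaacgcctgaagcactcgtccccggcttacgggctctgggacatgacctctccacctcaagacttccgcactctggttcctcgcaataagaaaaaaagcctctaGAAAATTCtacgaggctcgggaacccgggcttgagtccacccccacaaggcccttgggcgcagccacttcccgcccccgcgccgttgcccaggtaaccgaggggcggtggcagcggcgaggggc
Hspd1: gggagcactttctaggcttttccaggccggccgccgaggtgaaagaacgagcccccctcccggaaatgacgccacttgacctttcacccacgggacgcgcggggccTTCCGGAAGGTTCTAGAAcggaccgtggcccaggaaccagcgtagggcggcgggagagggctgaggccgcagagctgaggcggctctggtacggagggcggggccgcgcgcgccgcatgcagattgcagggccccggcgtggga
Hspa1b: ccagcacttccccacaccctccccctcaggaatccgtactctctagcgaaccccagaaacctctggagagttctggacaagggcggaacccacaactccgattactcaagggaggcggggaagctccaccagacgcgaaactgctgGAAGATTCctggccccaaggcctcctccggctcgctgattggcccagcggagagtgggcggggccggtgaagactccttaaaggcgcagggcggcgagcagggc
The window shown for Hspd1 held 3 overlapping matches and the others 1 each. RefSeq has further starts for these genes: another window of Hspd1 and 2 others of Dnaja1 held no match, and another window of Hsph1 overlapped the one shown and held 1. Hspa1b was at 64.2, 23.4 and 5.52 CPM in sham blood and 13.03, 7.05 and 9.12 CPM in stroke blood and shares reads with its near-identical copy Hspa1a. The windows of Hsp90b1, Hspa5 and Dnajb1, the rest of the 7 genes at an unadjusted p below 0.05, held no match, which says only that these letters are not in these windows.

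Genes of non-classical monocytes were somewhat higher in stroke blood, and those of classical monocytes were divided, with more of them lower than higher at an unadjusted p below 0.05. Of 19 non-classical genes tested, 16 were higher, 6 at an unadjusted p below 0.05 (31.6%, against 6.51% of all genes) and none lower at that level, with a median of 0.47. Without sham blood 3 or stroke blood 2, 3 were higher at that level, and without sham blood 1, 4 were. Of all genes tested, 4.71%, 8.18% and 7.44% were higher in these fits. Spn, which encodes the surface mucin CD43, was at 45.1, 64.5 and 33.9 CPM in sham blood and 109, 71.5 and 103 CPM in stroke blood (log2 fold change 1.02, SE 0.26, edgeR adjusted p = 0.285). Slc12a2 was at 3.31, 3.29 and 1.79 CPM in sham blood and 9.94, 5.33 and 5.56 CPM in stroke blood, and Ace and Itga4 had log2 fold changes of 0.67 and 0.47. In sum the list held 3449.6, 3979 and 3393 CPM in sham blood and 4222, 4733 and 4146 CPM in stroke blood, and the groups did not overlap. Such a sum depends most on the abundant members. The median over members of the log2 difference from the 6-library mean did overlap. It was -0.21, 0.21 and -0.53 in sham blood and 0.23, 0.28 and -0.08 in stroke blood. Of 18 classical genes tested, 9 were higher and 9 lower, with a median of 0.01. At an unadjusted p below 0.05, 2 were higher (11.1%) and 6 lower (33.3%, against 5.97% of all genes), and DESeq2 called 1 higher and 3 lower. Without sham blood 3, stroke blood 1 or stroke blood 3, 4 of the classical genes were lower at that level. Of all genes tested, 4.45%, 4.12% and 4.48% were lower in these fits. Plac8 was at 1593, 1609 and 1343 CPM in sham blood and 2941, 1999 and 3903 CPM in stroke blood (log2 fold change 1.00), with all stroke values above all sham values. Clec4e, the Mincle receptor, had a log2 fold change of -0.86 and Chil3 had -1.28. Both were highest in sham blood 3, the library with the most neutrophil transcripts. Chil3 was at 6500, 10107 and 22681 CPM in sham blood and 6052, 5779 and 3933 CPM in stroke blood. Thbs1 also belongs to this list.

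Genes of antigen presentation through MHC class I, which shows peptides to CD8 T cells, were higher by a small amount. All 17 MHC class I and immunoproteasome genes tested had a log2 fold change above 0, with a median of 0.30. At an unadjusted p below 0.05, 5 were higher (29.4%, against 6.51% of all genes). That number was 1 without sham blood 2, sham blood 3, stroke blood 1 or stroke blood 3. Of all genes, 3.84%, 4.71%, 3.97% and 3.50% were higher in these fits. Without sham blood 1 or 3, 13 and 12 of the 17 were above 0. The summed list overlapped between groups, at 16714, 16257 and 13344 CPM in sham blood and 17221, 16206 and 18086 CPM in stroke blood. Tap1, the peptide transporter, was at 162, 190.3 and 159 CPM in sham blood and 246, 229 and 221 CPM in stroke blood (log2 fold change 0.48, SE 0.14, edgeR adjusted p = 0.299). The immunoproteasome subunits Psmb8 and Psmb10 had log2 fold changes of 0.50 and 0.39, and Psme2 of the proteasome activator had 0.45. Of 38 genes stimulated by type I interferon, 30 were higher, with a median of 0.27, but 3 were so at an unadjusted p below 0.05 (7.89%), a share close to the 6.51% of all genes. Zbp1, a nucleic acid sensor, was at 133, 137 and 122 CPM in sham blood and 229.8, 175 and 234 CPM in stroke blood (log2 fold change 0.75, SE 0.17), and Phf11d and Irf7 had log2 fold changes of 1.11 and 0.63. The summed interferon genes overlapped between groups, at 16091, 13228 and 10072 CPM in sham blood and 14055, 13167 and 16954 CPM in stroke blood. Without sham blood 3, the lowest of these, the median of the list was 0.06. Without sham blood 1 it was 0.51 with 14 genes higher at an unadjusted p below 0.05, where 7.44% of all genes were.

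B cell genes were lower in stroke blood. Of 14 B cell genes tested, 13 were lower, 10 of them at an unadjusted p below 0.05 (71.4%, against 5.97% of all genes), with a median of -1.57, and DESeq2 called 8. Fcmr, the Fc receptor for IgM, was at 16.7, 40.3 and 37.6 CPM in sham blood and 7.43, 6.54 and 3.99 CPM in stroke blood (log2 fold change -2.36, SE 0.36, edgeR adjusted p = 0.285). Cd79a, the signalling chain of the B cell receptor, was at 38.6, 91.9 and 89.3 CPM in sham blood and 32.8, 14.2 and 18.9 CPM in stroke blood. Neither gene overlapped between the groups, and sham blood 1 was the lowest sham library for both. Ms4a1, which encodes CD20, had a log2 fold change of -1.49, and Ighd had -1.66. Spib, Ly6d, H2-Ob and H2-Oa, which B cells also express, had -1.81, -1.88, -1.66 and -1.60. The summed list overlapped, at 872, 1335 and 986 CPM in sham blood and 977, 791 and 667 CPM in stroke blood, and Igkc alone was at 85.9, 199 and 145 CPM in sham blood and 251, 28.2 and 49.5 CPM in stroke blood.

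T and NK cell genes were mixed. Of 20 tested, 13 were lower and 6 were so at an unadjusted p below 0.05 (30%, against 5.97% of all genes). Cd3e of the T cell receptor complex was at 4.48, 7.19 and 3.57 CPM in sham blood and 1.35, 1.25 and 1.19 CPM in stroke blood (log2 fold change -1.96, SE 0.38), and Cd3d, Cd3g and Cd8b1 had log2 fold changes of -1.74, -1.59 and -2.12. Their summed level was highest in stroke blood 1, at 488, 1242 and 685 CPM in sham blood and 1579, 632 and 511 CPM in stroke blood. The median of -0.19 was -0.94 without stroke blood 1, with all 20 genes lower, 0.30 without sham blood 2 and 0.21 without stroke blood 3. Of 18 neutrophil genes, 16 were lower, 6 at an unadjusted p below 0.05 (33.3%), with a median of -1.08, which was -0.34 without sham blood 3. S100a8, an alarmin of neutrophils, was at 41.2, 77.5 and 956 CPM in sham blood and 29.9, 13.5 and 44.2 CPM in stroke blood, and Lcn2 at 12.8, 52.2 and 457 CPM in sham blood and 18.7, 6.86 and 18.9 CPM in stroke blood. Sham blood 3 held the highest value of both by far, and the other sham blood libraries overlapped stroke blood. Saa3 and Wfdc21 had the same highest library.

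**Figure D4:**
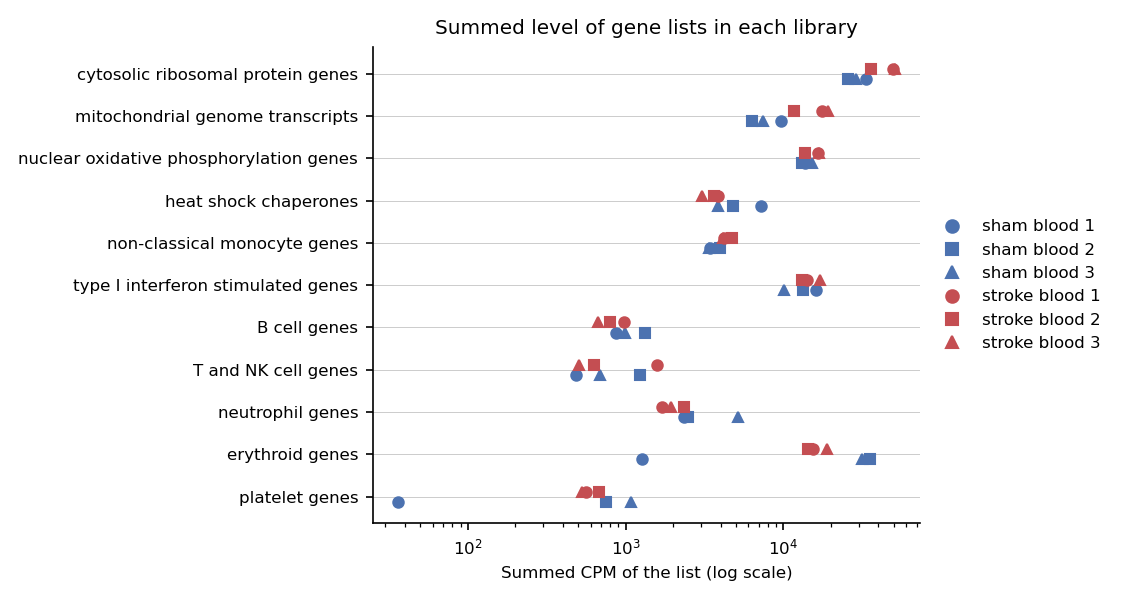
Summed CPM of all genes of a list on a log axis, with each symbol a library. Ribosomal protein genes, mitochondrial transcripts and non-classical monocyte genes are higher in stroke blood without overlap. Heat shock chaperones and neutrophil genes are lower without overlap, but only just. Their lowest sham sums are 3868.5 and 2356 CPM and their highest stroke sums 3824 and 2353 CPM. Sham blood 1 is lowest for erythroid and platelet genes, and sham blood 3 is highest for neutrophil genes.

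Replication and mitosis genes were mostly lower in stroke blood. Of 28 tested, 25 were lower, 9 of them at an unadjusted p below 0.05 (32.1%, against 5.97% of all genes), with a median of -0.67. Without stroke blood 3, 4 were lower at that level, where 4.48% of all genes tested were. Mcm4 of the replicative helicase was at 29.7, 29.3 and 42.3 CPM in sham blood and 19.1, 20.4 and 21.5 CPM in stroke blood (log2 fold change -0.69, SE 0.21, edgeR adjusted p = 0.299). Its stroke values lay below all sham values. Mcm2 and Stmn1 had log2 fold changes of -0.66 and -0.96, and Cdk1, the kinase of mitotic entry, was at 2.63, 1.03 and 0.541 CPM in sham blood and 0.289, 0.186 and 0.162 CPM in stroke blood, close to the smallest level that 3 counts can show.

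Metabolic genes had smaller medians. Of 19 genes of cholesterol synthesis and efflux, 15 were higher, 4 at an unadjusted p below 0.05 (21.1%, against 6.51% of all genes) and 1 lower at that level, with a median of 0.31, which was 0.14 without stroke blood 2. Sqle, the squalene epoxidase, was at 18.2, 22.04 and 24.4 CPM in sham blood and 27.7, 54.1 and 27.4 CPM in stroke blood (log2 fold change 0.79), with all stroke values above all sham values. Fdft1 had a log2 fold change of 0.69 and the exporter gene Abcg1 had -0.50. Of 20 glycolysis and hypoxia genes, 15 were lower with a median of -0.13, led by Pfkl at 87.2, 94.4 and 84.7 CPM in sham blood and 56.4, 61.5 and 55.1 CPM in stroke blood and Pgam1 with a log2 fold change of -0.53.

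Inflammatory lists had medians near 0. The NF-kappaB response genes had a median of -0.03 over 27 genes. Nfkb1 was higher, at 90.6, 122 and 141 CPM in sham blood and 167, 194 and 166 CPM in stroke blood. Il1b was lower, at 155, 145 and 139 CPM in sham blood and 57.3, 93.04 and 127 CPM in stroke blood. Neither overlapped between groups, but of the 27 genes only 1 was higher and 1 lower without overlap. Of all genes tested, 8.23% and 10.5% were. Toll-like receptor and inflammasome genes had a median of -0.10 over 26 genes, with Tlr2 at -0.58 and Casp4 at 0.61 on the log2 scale. Of 18 complement and coagulation genes, 4 were lower at an unadjusted p below 0.05 (22.2%, against 5.97% of all genes) and none were higher. Without sham blood 3 the number lower was 2, where 4.45% of all genes were lower. Cfp, which encodes properdin, was at 663, 523 and 546 CPM in sham blood and 285, 303 and 379.5 CPM in stroke blood (log2 fold change -0.80, SE 0.18), and C3 had a log2 fold change of -0.61. The glucocorticoid response genes had a median of 0.00 over 13 genes. At an unadjusted p below 0.05, 3 were lower (23.1%, against 5.97% of all genes) and 1 was higher (7.69%, against 6.51%). Beside Fkbp5 and Il1r2 no member of that list was called by DESeq2. The efferocytosis list had a median of -0.04, the chemokine receptor and adhesion list -0.17 with S1pr1 at -1.44, and the alternative activation list -0.06 with Arg2 at -1.97. At the same unadjusted p, 4 of 29 efferocytosis genes were lower (13.8%) and 3 higher (10.3%). Of 22 chemokine receptor and adhesion genes, 5 were lower (22.7%) and 3 higher (13.6%). Of 14 alternative activation genes, 2 were lower (14.3%) and none higher. DESeq2 called 2 genes lower and none higher in each of these lists. Of 11 MHC class II genes, 8 were higher, with a median of 0.37 that lay between 0.16 and 0.55 when 1 library was left out. At an unadjusted p below 0.05, however, 1 was higher and 3 were lower. DESeq2 called 2 lower, H2-Ob and H2-Oa, which B cells also express and which are described with the B cell list. The sums of the MHC class II list, 11286, 8044 and 6719 CPM in sham blood and 8043, 11489 and 11279.5 CPM in stroke blood, overlapped. Immediate early genes had a median of 0.06 over 24 genes, which was 0.31 without sham blood 1 and -0.14 without sham blood 3. Without sham blood 1, 6 genes were higher at an unadjusted p below 0.05, where 7.44% of all genes were. Their member Egr1, named after its values were seen, was at 179, 11.6 and 7.36 CPM in sham blood and 19.7, 16.3 and 17.8 CPM in stroke blood, far higher in sham blood 1 than in any other library, and its log2 fold change of -1.87 was 0.97 without that library. Among the remaining lists, medians were 0.15 for monocyte lineage markers, 0.12 for circadian clock genes, 0.09 for proteasome subunits, 0.04 for annexins and S100 genes, 0.03 for myeloid transcription factors, 0.01 for Fc receptors and their adaptors, -0.07 for the integrated stress response, -0.07 for dendritic cell genes, -0.18 for NRF2 and heme genes and -0.51 for eosinophil, basophil and mast cell genes.

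**Figure D5:**
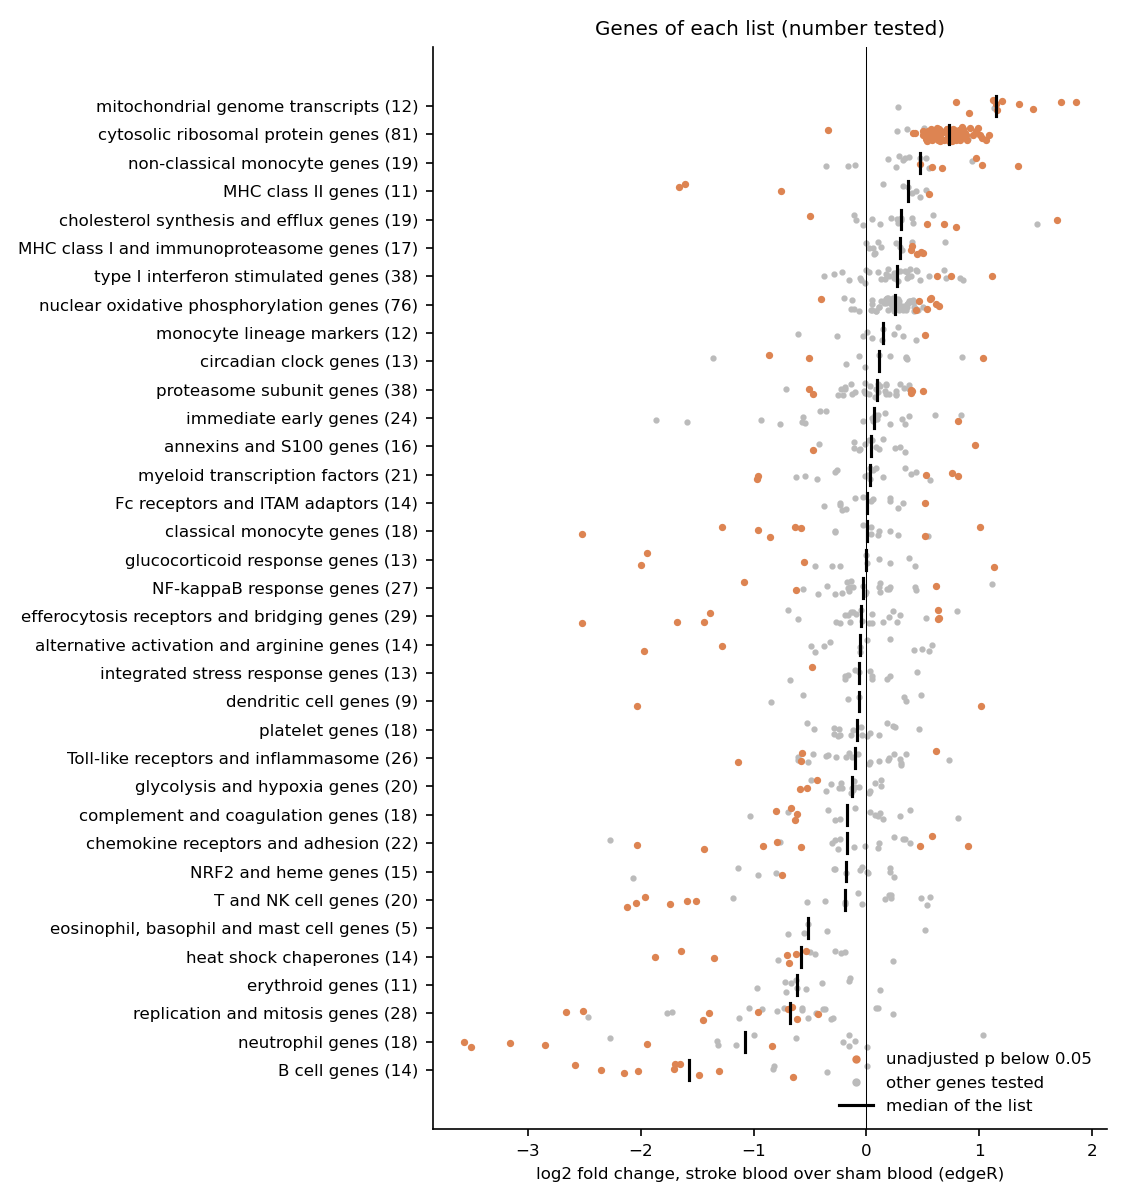
Log2 fold change of stroke blood over sham blood (x axis) for the tested genes of each list (rows, with the number tested), with a dot per gene, orange where the unadjusted p was below 0.05, and a bar at the median of the list. Mitochondrial transcripts and ribosomal protein genes have the highest medians, 1.15 and 0.73, and B cell genes the lowest, -1.57.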

How the data were processed

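RNA of sorted blood monocytes was sequenced from 3 stroke blood and 3 sham blood libraries, grouped by their labels. The authors prepared libraries with the SMART-Seq HT kit, mapped reads to GRCm38 with HISAT2 and counted them with HTSeq, as the paper and the submitters' processing notes state; versions, annotation and strand setting were not given in the sources used here. The deposited values are raw counts per gene, without normalization or molecular identifiers, so floors cover counting error only. Symbols were found for 53620 of the 53801 identifiers. Lengths and overlaps came from GENCODE M21, in which 52056 identifiers had the same coordinates as in the count files, and promoter windows came from RefSeq.

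DEGs were called with the quasi-likelihood test of edgeR 4.0.16 (R 4.3.3), with TMM factors, filterByExpr at its defaults and Benjamini-Hochberg adjustment over all tested genes. The standard error is the size of the log2 fold change over the square root of F. DESeq2 1.42.0 gave the alternative test and the variance-stabilized values. With 3 libraries against 3, an exact two-sided permutation test cannot give a p below 0.1. Lists hold no test. Where members are counted at an unadjusted p below 0.05, their share is set against that of all genes tested (6.51% higher, 5.97% lower, median log2 fold change -0.03). Members and lists were chosen with earlier results of these data known. Named genes are the 15 with the smallest p in each direction without overlap and a mean log2 CPM above 3, the 10 with the largest SD in each group above 5, and up to 4 members of a list by p. On simulated counts with 200 genes changed, edgeR recovered 97 of 100 at an absolute log2 fold of 2 and all 100 at 3. It called 13 unchanged genes among 12293 genes. DESeq2 recovered 99 and all 100, and called 31 unchanged genes among 12663. The changed genes were drawn from those at higher CPM, with noise drawn for each gene apart and no shift shared by genes of a library. The simulation held no smaller changes, so it does not show how many shifts of the size described here would be found. Alternatives were other normalizations and filters, a robust fit, a replicate block, each library left out in turn and a length and GC offset added after seeing the data. Figures were drawn with Python 3.11.15 and matplotlib 3.10.9. The 3 brain libraries were not used here. The values of a few genes are not reported here.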

Additional observations from a re-analysis of the deposited data

How the results depend on the processing

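The count of DEGs was 1 with RLE, library-size or upper-quartile normalization, with a mean of at least 50 counts, with the robust fit and without erythroid and platelet genes. It was 127 with DESeq2, 160 without a filter on low counts (187 and 207 with no fold change threshold), 0 at an adjusted p below 0.01, and 0 with the length and GC offset, also with no fold change threshold, the offset having been chosen after seeing the data. The cause of these differences was not tested. Leaving out a library gave 0 to 16 genes on either count: without sham blood 1, 16 genes passed, among them Serpinb10, Thbs1, Fkbp5 and Fcmr, without sham blood 3, Thbs1 and Serpinb10 passed, and without sham blood 2 or any single stroke blood library none did.

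Same-numbered libraries did not deviate together (correlations -0.05 to 0.00, against -0.07 to 0.09 for libraries of different numbers). Whether same-numbered mice were handled together cannot be told from these values. With the replicate number as a block 1 gene passed, S100a9, which was lower in stroke blood, and Serpinb10 did not. Log2 fold changes that turned sign under the block included Itga2b at 0.52, Clu at 0.60 and Ppbp at 0.64.

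Log2 fold changes that turned sign when a library was left out ranged from -0.15 to 8.15 for Igha, -0.86 to 0.39 for Itga2b, -0.76 to 0.50 for Clu, -0.70 to 0.52 for Ppbp, -1.84 to 0.092 for Igkc and -1.14 to 0.22 for Gzmb, all chosen for their spread, and from -2.40 to 0.97 for Egr1, chosen after its values were seen. List medians that moved by more than the spread between libraries ranged from -0.21 to 0.43 for NF-kappaB response genes, -0.23 to 0.015 for Toll-like receptors and inflammasome, -0.20 to -0.022 for chemokine receptors and adhesion, -0.23 to -0.079 for glucocorticoid response genes, -0.23 to -0.12 for glycolysis and hypoxia genes, -0.032 to 0.095 for annexins and S100 genes, -0.29 to 0.032 for alternative activation genes, -0.36 to 0.075 for complement and coagulation genes, -1.24 to -0.34 for neutrophil genes and -1.34 to -0.0102 for eosinophil, basophil and mast cell genes. With upper-quartile normalization the medians were -0.058 for glycolysis and hypoxia genes and 0.11 for annexins and S100 genes. With the offset they were -0.079 for glycolysis and hypoxia genes, 0.063 for monocyte lineage markers and 0.044 for nuclear oxidative phosphorylation genes. PC1 held 34.8% of the variance over all genes with a count and 32.6% on log2(normalized count + 1) values. PC2 separated the groups on log2(normalized count + 1) values, but not over all genes with a count.

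Each p measures the spread between these 6 mice only. Levels near 3 counts, such as those of Cdk1 in stroke blood, are limited by depth.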
